A study of Mus musculus with 2 samples.

Results

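Chemokines and their receptors were examined in spatial transcriptomics (ST) of mouse liver. The members are all rows of the gene tables whose symbol starts with Ccl, Cxcl, Cx3cl, Xcl, Ccr, Cxcr, Cx3cr or Xcr followed by a digit, which gave 63 of 32285 rows with 57 different symbols, 44 rows for ligands and 19 for receptors. Male C57BL/6J mice arrived at 5 weeks of age, acclimatised for 1 week and received either a normal chow diet (NCD) or a high-fat diet (HFD) for 14 weeks, and both groups then had 8 weeks of daily oral distilled water. From each group 1 mouse was taken at random and 1 perfused, fresh-frozen liver section of 10 µm was laid on a Visium slide, where RNA is captured in barcoded spots and each captured molecule carries a tag, the unique molecular identifier (UMI), that lets it be counted once. Several cells lie over each spot, so all values describe small regions and not cells.

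With 1 section for each diet, diet, animal, section and slide cannot be told apart and no test was possible. The 95% intervals below are exact and cover counting error only. The NCD liver held 3692 spots over tissue with 29037988 UMIs, and the HFD liver 3594 spots with 72118803 UMIs, with medians of 4187.5 and 18549 UMIs for each spot. Spots outside the tissue held 19.1% of the UMIs of the NCD slide but 2.93% of those of the HFD slide. Their median depth was 3383 UMIs on the NCD slide, not far below that over tissue, and 1175.5 UMIs on the HFD slide. The sections shared 3173 spot barcodes, which are position codes of the slide design. The hepatocyte gene Alb stood at 56011 and 57872 CPM (UMIs of a gene per 1000000 UMIs of all genes over tissue) in the NCD and HFD livers, whereas Ptprc (6.61 and 10.7 CPM), Kit (3.06 and 3.02 CPM) and Cd34 (1.17 and 3.59 CPM) were low, so the tables hold liver tissue and not the immune or stem cells that one label names.

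Chemokines are small secreted proteins that guide cells along concentration gradients, and they are classed as CC, CXC, XC or CX3C by the spacing of their first cysteines. Their receptors pass through the membrane several times and signal through inhibitory G proteins. In the liver they are known for drawing neutrophils and monocytes into injured tissue and for holding T cells and dendritic cells in portal tracts. Ligands that inflammation induces are usually set apart from homeostatic ligands that are made constantly.

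By gene ID, 56 of the 63 rows had a position in GENCODE M21 on GRCm38, and many of these genes lie in clusters. On chromosome 11, 6 CC ligands around Ccl2 lie at chr11:82035571-82305690 and 5 others, among them Ccl5, Ccl6 and Ccl9, at chr11:83525778-83664683. A cluster at chr5:90759360-90905938 holds the 5 neutrophil-attracting genes Cxcl5, Cxcl3, Cxcl15, Cxcl1 and Cxcl2. Ccl27a, Ccl19 and Ccl21a lie at chr4:41769467-42773993 and are known for near-identical copies, of which the tables list several with 0 UMIs, so the counts of these genes are uncertain. Of the members, 16 rows overlap a gene on the opposite strand, including Ccl27a with Il11ra1, Ccl25 with Elavl1 and Cxcl10 with Art3, and the sources used here do not state whether counting used the strand. On the same strand, Cx3cr1 overlaps Csrnp1, Gorasp1 and Xirp1, and Ccr9 overlaps Gm17020 and Gm17200, so the counts of Cx3cr1 and Ccr9 are uncertain even with strand.

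The bases before the starts of Cxcl1, Cxcl2 and Cxcl10 are shown because Cxcl1 and Cxcl2 had the largest ratios of pooled counts between the sections and Cxcl10 followed interferon-induced genes over the spots. They come from RefSeq's promoter windows on GRCm38.p6, are written 5′ to 3′ on the strand of the gene, and stop before the first transcribed base of either annotation. Capitals mark matches on either strand to the κB motif, the letters read by NF-κB, or to GAAANNGAA, the core of the interferon response element. In Cxcl1 and Cxcl2 the capitals are the same 11 bases, made of κB matches on both strands that overlap. In Cxcl10 the first run of capitals is the interferon element core and the next 2 runs are κB matches.
Cxcl1 (chr5:90890995-90891240, + strand): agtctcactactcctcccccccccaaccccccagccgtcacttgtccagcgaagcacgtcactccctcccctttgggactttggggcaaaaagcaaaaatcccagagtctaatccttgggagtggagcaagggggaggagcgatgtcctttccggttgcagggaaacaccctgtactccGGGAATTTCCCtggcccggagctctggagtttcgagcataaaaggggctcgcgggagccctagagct
Cxcl2 (chr5:90903649-90903870, + strand): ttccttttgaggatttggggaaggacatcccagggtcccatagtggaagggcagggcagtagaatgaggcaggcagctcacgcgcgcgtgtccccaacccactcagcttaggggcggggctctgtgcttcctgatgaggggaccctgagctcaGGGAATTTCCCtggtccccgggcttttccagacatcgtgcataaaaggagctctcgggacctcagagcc
Cxcl10 (chr5:92348890-92349139, − strand): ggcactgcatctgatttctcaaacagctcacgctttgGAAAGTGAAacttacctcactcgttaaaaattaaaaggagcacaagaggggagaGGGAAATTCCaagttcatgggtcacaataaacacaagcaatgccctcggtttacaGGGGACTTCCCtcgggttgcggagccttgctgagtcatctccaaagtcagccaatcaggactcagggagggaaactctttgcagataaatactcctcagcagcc
Over the 250 bases before each start, a κB match was found in 7.25% of all 32851 promoters, in 7 of 34 ligand promoters and in 3 of 16 receptor promoters. The interferon element core was found in 7.13% of all promoters, in 6 of the 34 ligand promoters and in 2 of the 16 receptor promoters. A match describes letters only, and binding was not measured.

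Of the 63 rows, 16 had 0 UMIs in both sections, 15 had 1 to 49 UMIs and 32 had at least 50 UMIs over both sections, which was the minimum for a ratio, and 40% of all rows passed the same minimum. Ligands summed to 442 CPM (434.53 to 449.86) in the NCD liver and 459 CPM (454.41 to 464.31) in the HFD liver, a log2 ratio of 0.055 (0.026 to 0.085). That sum was dominated by Cxcl12, with 45.4% of all member UMIs in the NCD liver and 29.9% in the HFD liver. Without Cxcl12 the ligands summed to 237 and 316 CPM, a log2 ratio of 0.41 (0.38 to 0.45). Receptors summed to 9.02 CPM (7.96 to 10.2) in the NCD liver and 18.8 CPM (17.8 to 19.8) in the HFD liver, a log2 ratio of 1.06 (0.86 to 1.25). The sign of the small ligand difference was not stable, since it was −0.082 as a mean over spots and −0.036 after each spot was drawn down to 3000 UMIs. Off tissue, ligands summed to 444 CPM on the NCD slide, near their level over tissue, and to 331 CPM on the HFD slide. The part of RNA off tissue in the NCD values was not tested.

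**Figure D1:**
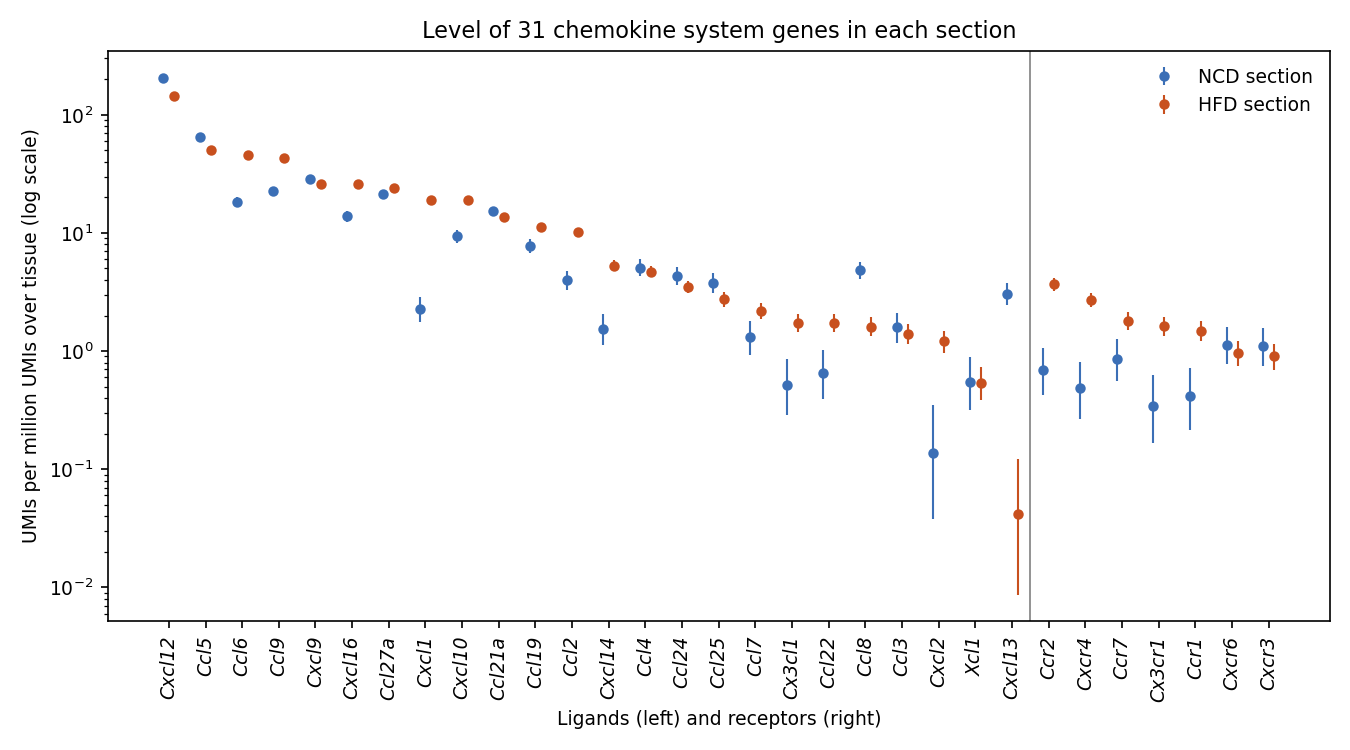
Level of 31 of the 32 genes with at least 50 UMIs, in CPM over tissue on a log axis, with NCD in blue, HFD in orange and bars for 95% exact Poisson intervals. Cxcl12 stands highest in both sections (205 and 143 CPM), and 5 of the 7 receptors on the right are at least 2-fold higher in the HFD liver.

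At least 2-fold higher in the HFD liver were 13 of the 32 members (8 ligands and 5 receptors), where 11.9% of all 12919 genes with that minimum were. At least 2-fold lower were 2 members, Ccl8 and Cxcl13, against 2.5% of all genes. When the rate of the spots off tissue was subtracted, these counts were 13 and 4, but the members were not the same. This rate is the mean UMIs of a gene in a spot off tissue, taken off once for every spot over tissue. The total was then the sum of the UMIs left. The subtraction removed a far larger part of the UMIs of the NCD section than of the HFD section. Ccl2, Ccl6, Ccr1 and Ccr7 no longer passed as higher, while Ccl7, Ccl9 and Xcl1 were among those that came in. On the NCD slide Ccl7 had 38 UMIs over tissue and 12 off it, and Xcl1 had 16 and 5. For both, few NCD UMIs were left after the subtraction. Ccl8 no longer passed as lower, while Ccl5, Ccl25 and Cxcr3 did. Cxcr4, Ccr2 and Cx3cl1 were counted as higher although their subtracted NCD counts lay below 0, so they had no ratio. The median log2 ratio was 0.64 over the 32 members and 0.25 over all genes. Intervals lay above 0 for 19 members, where 51.6% of all genes did, below 0 for 6, where 16.8% did, and across 0 for 7, so these shares are near those of all genes. A UMI of any member was found in 67.4% of NCD spots (65.3 to 69.4) and 72.2% of HFD spots (70.7 to 73.7) after drawing down to 3000 UMIs. Of the 15 members past 2-fold, 9 stayed so under every alternative that gave a value, whereas Cxcl10, Ccr1, Ccl2, Ccl8, Ccl6 and Ccr7 did not. In these sections fewer cells of a type and less RNA in each cell cannot be told apart.

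**Figure D2:**
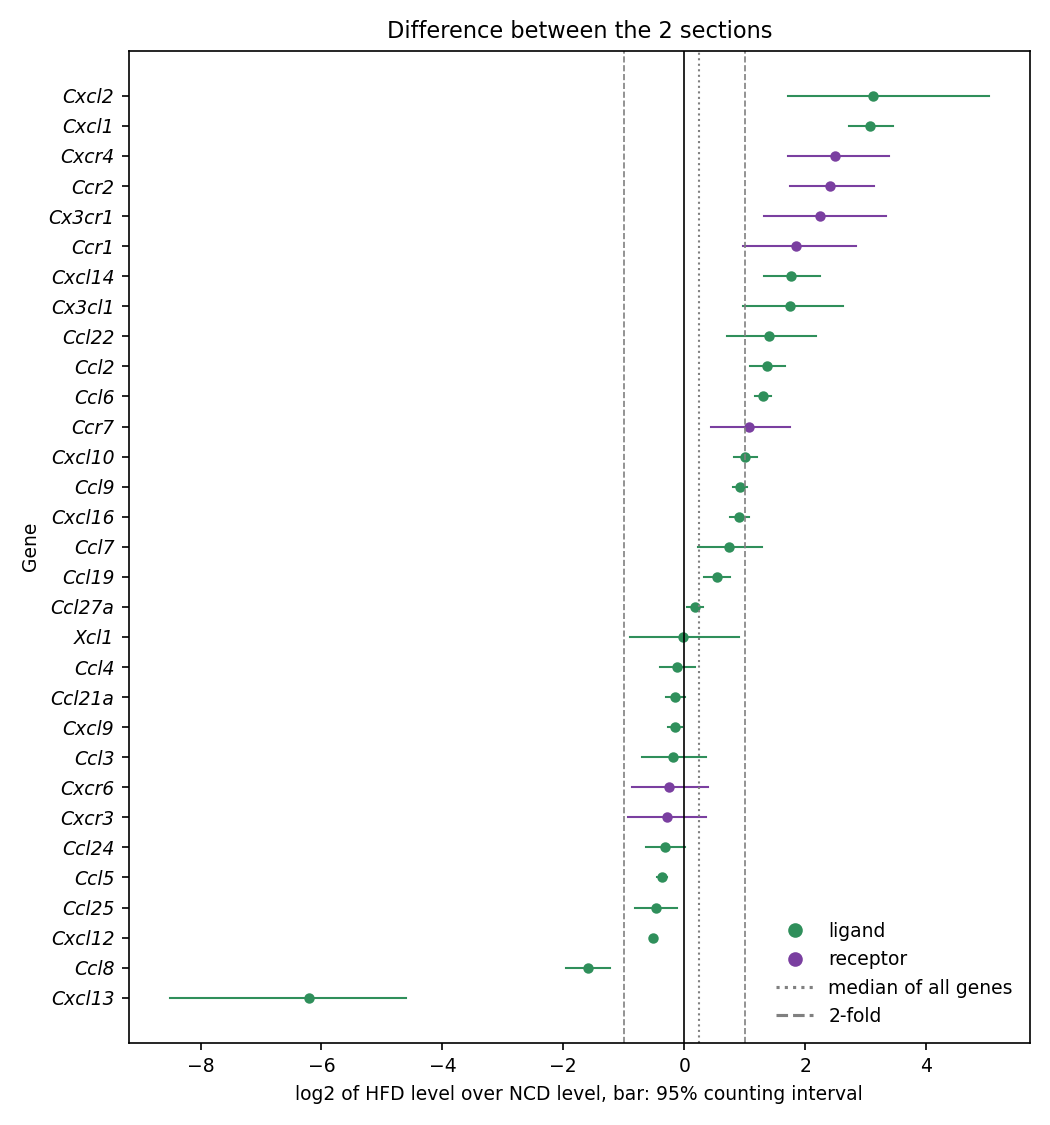
Log2 ratio of HFD over NCD level for the same 31 genes, with ligands in green, receptors in purple and bars for 95% exact counting intervals. The points run from Cxcl13 at −6.20 to Cxcl2 at 3.13, and the dotted line marks the median of all genes at 0.25.

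The neutrophil-attracting ligands Cxcl1 and Cxcl2 had the largest ratios in pooled counts. As a mean over spots, however, Cx3cr1 (2.89) was higher than both. With the rate off tissue subtracted Cx3cr1 (3.45) stood above Cxcl1 (2.01) and Cxcl2 (3.34), but few NCD UMIs were then left. On the NCD slide Cx3cr1 had 10 UMIs over tissue and 3 off it, and Cxcl2 had 4 and 1, so this order is uncertain. Cxcl1, a ligand of Cxcr2 that hepatocytes and stromal cells make under inflammatory signals, had 66 UMIs (2.27 CPM) in the NCD liver and 1381 UMIs (19.1 CPM) in the HFD liver, 8.42-fold higher (6.58 to 11.0). Its log2 ratio was 3.07 (2.72 to 3.45) in pooled counts, 1.79 as a mean over spots, 2.01 with the rate off tissue subtracted and 4.61 without the 1% of spots richest in Cxcl1. Those spots held 69.7% of the Cxcl1 UMIs in the NCD liver and 11.6% in the HFD liver, so dropping them raises the ratio. Cxcl2, another Cxcr2 ligand, had 4 and 87 UMIs (0.138 and 1.21 CPM), a log2 ratio of 3.13 (1.72 to 5.04) that rests on 4 UMIs in one section. Cxcl5 of the same cluster had 2 and 28 UMIs. Their receptor Cxcr2 had 2 and 6 UMIs, too few for a ratio. After drawing each spot down to 3000 UMIs, Cxcl1 was detected in 0.617% of NCD spots (0.329 to 1.05) and 6.08% of HFD spots (5.31 to 6.92), so the intervals do not overlap. The neutrophil markers S100a8, S100a9 and Csf3r summed to 15.5 CPM in the NCD liver and 11.6 CPM in the HFD liver, which is the opposite direction, and their part in the values of these ligands was not tested.

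Among the genes of monocyte and macrophage traffic, the receptors Ccr2, Cx3cr1 and Ccr1 were higher in the HFD liver. So were their ligands Ccl2, Ccl7, Cx3cl1, Ccl6 and Ccl9, but not the others. Of the other Ccr1 ligands, Ccl5 was lower (log2 −0.36, −0.44 to −0.28) and Ccl3 was at −0.18 (−0.69 to 0.36). The Ccr2 ligand Ccl12 had too few UMIs for a ratio. Ccr2, which brings monocytes out of the bone marrow, had 20 UMIs (0.689 CPM) in the NCD liver and 264 UMIs (3.66 CPM) in the HFD liver, a log2 ratio of 2.41 (1.75 to 3.14). Its ligands Ccl2 and Ccl7 had log2 ratios of 1.37 (1.09 to 1.67) and 0.74 (0.22 to 1.29). With the rate off tissue subtracted the log2 ratio of Ccl2, at 3.96 and 10.3 CPM, was 0.44. That of Ccl7 was 2.46, on few remaining NCD UMIs. Ccr2 stood at 1.31 CPM off tissue on the NCD slide, above its level over tissue. Its subtracted NCD count lay below 0, so it had no ratio.

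Cx3cr1, the fractalkine receptor of monocytes and some macrophages, had 10 and 118 UMIs (0.344 and 1.64 CPM) and a log2 ratio of 2.25 (1.32 to 3.35), or 3.45, on few remaining NCD UMIs, with the rate off tissue subtracted. Cx3cl1, its membrane-bound ligand, had 15 and 125 UMIs (0.517 and 1.73 CPM) and a log2 ratio of 1.75 (0.97 to 2.63). Both partners of this pair were therefore higher in the HFD liver beyond counting error in pooled counts. On the NCD slide, however, Cx3cl1 stood at 1.16 CPM off tissue, above its level over tissue. No ratio of Cx3cl1 could be taken after subtraction, since its NCD count then lay below 0. The counts of Cx3cr1 are also uncertain, since it overlaps other genes on the same strand. Ccr1 was also higher, with 12 and 107 UMIs and a log2 ratio of 1.84 (0.98 to 2.84), which was 0.63 with the rate off tissue subtracted.

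Ccl6 and Ccl9, ligands of Ccr1 known from macrophages, were higher in the HFD liver as well. Ccl6 had 534 UMIs (18.4 CPM) and 3275 UMIs (45.4 CPM), 2.47-fold higher (2.25 to 2.71), with a log2 ratio of 0.46 once the rate off tissue was subtracted. Ccl9 had 656 UMIs (22.6 CPM) and 3089 UMIs (42.8 CPM), a log2 ratio of 0.92 (0.80 to 1.05), which was 1.92 with the rate off tissue subtracted and 0.50 as a mean over spots. In contrast, Ccl8, another ligand of myeloid cells, was lower, with 141 UMIs (4.86 CPM) against 116 UMIs (1.61 CPM) and a log2 ratio of −1.59 (−1.96 to −1.23), or −0.52 with the rate off tissue subtracted. The eosinophil attractant Ccl24 stood at 4.34 and 3.49 CPM and its interval held 0. The monocyte markers (Ly6c2, Itgam, F13a1) summed to 3.10 and 5.16 CPM, the markers of lipid-associated macrophages to 40.5 and 128 CPM and the Kupffer cell markers to 207 and 197 CPM, with every listed gene detected. The part of these cells in the chemokine values was not tested.

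Ligands that recruit effector T cells and NK cells did not share a direction. Cxcl10, which interferons induce and which binds Cxcr3, had 272 UMIs (9.37 CPM) in the NCD liver and 1361 UMIs (18.9 CPM) in the HFD liver, a log2 ratio of 1.01 (0.82 to 1.20) that lies at the 2-fold line. As a mean over spots its log2 ratio was 0.50. Cxcl9, the partner that interferon gamma induces, stood at 28.8 and 25.9 CPM (−0.15, −0.27 to −0.03), which turned to 0.082 without the 1% of spots richest in it. Those spots held 27.5% of the Cxcl9 UMIs in the NCD liver and 13.8% in the HFD liver.

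Their receptor Cxcr3 had 32 and 65 UMIs, and its log2 ratio of −0.29 had an interval that held 0 (−0.92 to 0.37). Ccl5, made by T cells and NK cells, stood at 65.4 CPM (62.5 to 68.4) in the NCD liver and 50.8 CPM (49.1 to 52.5) in the HFD liver. For Ccl3 and Ccl4, which macrophages and activated T cells make, the log2 ratios of −0.18 and −0.12 had intervals that held 0. Xcl1, the Xcr1 ligand of NK cells and T cells, had 16 and 39 UMIs and an interval that held 0. The T cell markers summed to 16.5 and 11.4 CPM and the NK cell markers to 3.82 and 2.77 CPM, beside the lower Ccl5, and their part in it was not tested.

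Among the homeostatic ligands, Cxcl12, the Cxcr4 ligand that retains blood cell precursors and lymphocytes in stroma, was lower in the HFD liver in pooled counts. It had 5949 UMIs (205 CPM) in the NCD liver and 10326 UMIs (143 CPM) in the HFD liver, a log2 ratio of −0.52 (−0.56 to −0.47). Its receptor Cxcr4 was higher there, with 14 and 196 UMIs (0.482 and 2.72 CPM), a log2 ratio of 2.49 (1.71 to 3.39). Off tissue on the NCD slide Cxcr4 stood at 1.46 CPM, above its level over tissue. Its subtracted NCD count lay below 0, so it had no ratio. Of the spots drawn down to 3000 UMIs, 44.9% held Cxcl12 in the NCD liver and 34.5% in the HFD liver. Spots off tissue on the NCD slide carried Cxcl12 at 241 CPM, above the level over tissue, and with the rate off tissue subtracted the log2 ratio turned to 0.16.

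The Ccr7 ligands Ccl21a and Ccl19, which lymphatic endothelium and stroma make and which guide dendritic cells and naive T cells, stayed under 2-fold between the sections. Ccl21a stood at 15.2 and 13.8 CPM with an interval that held 0, and Ccl19 at 7.75 and 11.3 CPM (0.54, 0.33 to 0.76), though as a mean over spots Ccl19 turned to −0.066. Ccr7, the receptor of mature dendritic cells and naive T cells, had 25 and 130 UMIs (0.861 and 1.80 CPM) and a log2 ratio of 1.07 (0.44 to 1.75). Its direction turned to −0.58 when the rate of the spots off tissue was subtracted.

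Ccl22, a product of mature dendritic cells, had 19 and 125 UMIs (0.654 and 1.73 CPM) and a log2 ratio of 1.41 (0.70 to 2.19). Beside these, the mature dendritic cell list (Fscn1 and Lamp3) summed to 2.07 and 4.20 CPM, with 1 of its 2 genes at 0 in both sections. Cxcl14, an epithelial ligand, was higher beyond counting error too, with 45 and 382 UMIs (1.55 and 5.30 CPM) and a log2 ratio of 1.77 (1.32 to 2.25). Cxcl16, the membrane-bound ligand of Cxcr6, stood at 13.8 and 25.9 CPM (0.91, 0.76 to 1.07), whereas Cxcr6 had 33 and 69 UMIs and an interval that held 0. The log2 ratio of Cxcl16 was 0.13 as a mean over spots, 0.54 after drawing down to 3000 UMIs and 0.48 with the rate off tissue subtracted.

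Cxcl13, which organises B cell follicles, had the lowest ratio of all members. It had 89 UMIs (3.07 CPM) in the NCD liver and 3 UMIs (0.0416 CPM) in the HFD liver, a log2 ratio of −6.20 (−8.51 to −4.61) that rests on those 3 UMIs. Another 30 Cxcl13 UMIs lay off tissue on the NCD slide, at 4.37 CPM, which is above the level over tissue. With the rate off tissue subtracted the log2 ratio was −3.15, but few UMIs were then left in either section. Its receptor Cxcr5 had 3 and 2 UMIs. The plasma cell markers also differed, at 111 CPM in the NCD liver and 8.44 CPM in the HFD liver, while the B cell markers stood at 3.79 and 2.90 CPM, and their part in the Cxcl13 values was not tested. Ccl27a, known from skin, was nearly level at 21.2 and 23.9 CPM (0.17, 0.04 to 0.31), and Ccl25, known from gut and thymus, stood at 3.79 and 2.75 CPM (−0.46, −0.81 to −0.11), which turned to 0.041 as a mean over spots.

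The 15 rows with fewer than 50 UMIs were Ccl17 (15 and 26 UMIs), Ccr9 (3 and 30), Xcr1 (11 and 22), Ccl12 (8 and 24), Cxcl5 (2 and 28), Ccl11 (1 and 14), Ccr10 (4 and 7), Cxcr2 (2 and 6), Ccr3 (2 and 5), Ccl28 (6 and 1), Cxcr5 (3 and 2), Cxcl3 (0 and 3), Cxcl17 (1 and 2), Cxcr1 (0 and 2) and Ccl20 (0 and 1), with NCD before HFD. No UMI was found for Ccr4, the receptor of Ccl17 and Ccl22, for Ccr6, the receptor of Ccl20, or for Ccr8, a receptor of Ccl8 in mice. The other symbols at 0 were Ccl1, Ccl21b, Ccl21c, Ccl26, Ccl27b, Ccr1l1 and Cxcl15, and the further copies of Ccl19, Ccl21a and Ccl27a were at 0 too. A count of 0 allows a level of up to 0.103 CPM in the NCD liver and 0.0416 CPM in the HFD liver when 3 counts are taken as the limit, so absence cannot be stated.

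How a gene was spread over the spots was measured by the mean squared Pearson residual of its UMIs against a Poisson model with the depth of each spot, where 1 means no clustering beyond counting. Its median over all genes was 1.12 in the NCD liver and 1.06 in the HFD liver. Above the 95th percentile of all genes (1.87 and 1.34) lay 10 of 25 members in the NCD liver and 13 of 36 in the HFD liver. Most clustered was Ccl21a, at 16.6 and 19.1, with up to 35 UMIs in 1 spot of the NCD liver and 41 in 1 spot of the HFD liver. In the HFD liver 56.9% of all Ccl21a UMIs lay in 1% of the spots. Cxcl10 followed there at 4.73, with up to 39 UMIs in 1 spot, then Ccl5 at 3.40 and Ccr7 at 2.32. In contrast, Cxcl12 was found in 86.6% of the HFD spots with a residual of 1.28, and Ccl27a at 1.04 was close to Poisson.

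**Figure D3:**
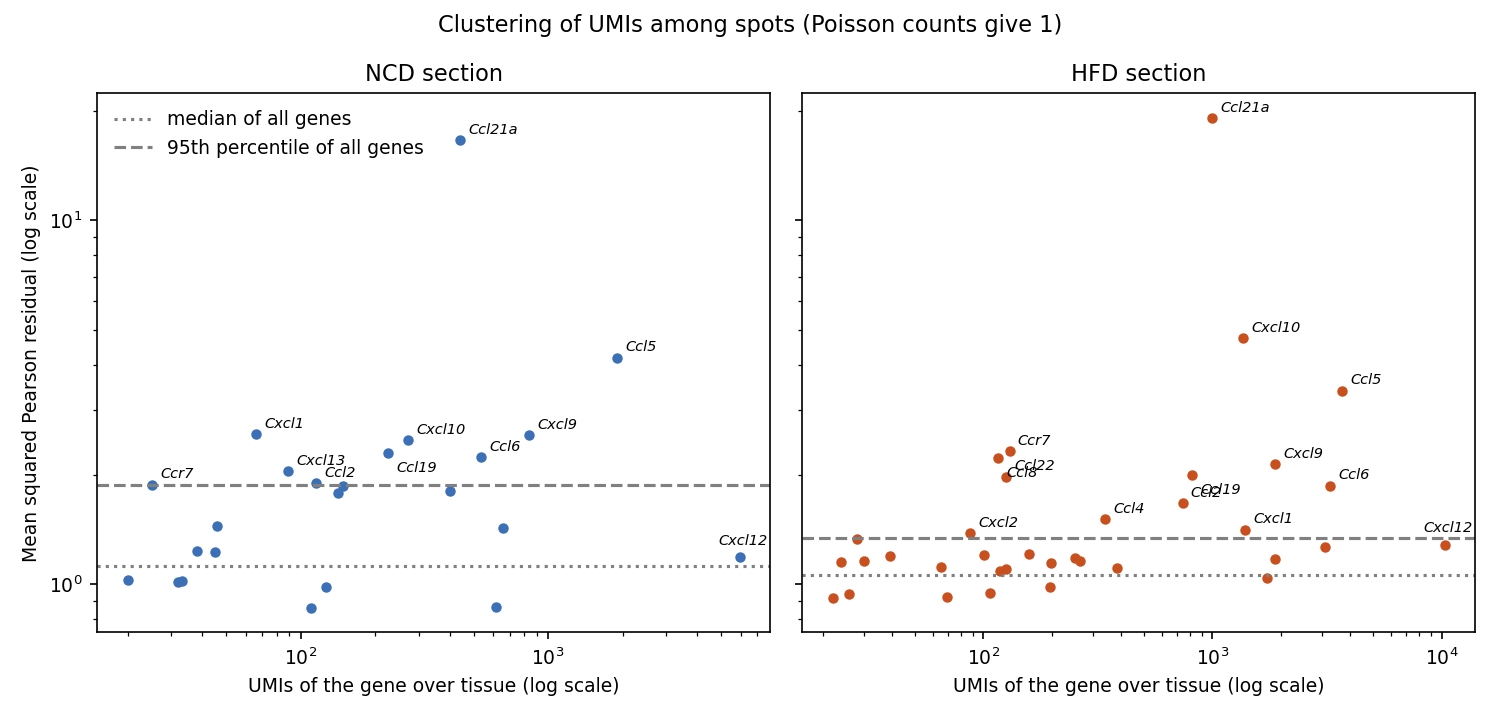
Mean squared Pearson residual of members with at least 20 UMIs against its UMIs over tissue, both on log axes, for the NCD liver on the left and the HFD liver on the right. Ccl21a stands far above the lines for the median and the 95th percentile of all genes in both panels, at 16.6 and 19.1.

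The genes whose residuals followed a member most closely over the spots were named by Pearson's r, over 3590 HFD spots and 2852 NCD spots that share a library and differ in depth. Cxcl10 in the HFD liver went with Rsad2 (r = 0.64), Ifit1 (0.58), Ifit3 (0.53), Cmpk2 (0.50) and Oasl1 (0.45), all known as interferon-induced. In the NCD liver its nearest genes were Isg15 (0.28) and Rsad2 (0.26). Ccl21a in the HFD liver went with S100a6 (0.57), Cst3 (0.56), Mgp (0.56), Aebp1 (0.56) and Fbln1 (0.55), and Ccl19 with Gsn (0.57), Cst3 (0.55), Gpx3 (0.54), Dpt (0.54) and S100a6 (0.52), among them genes of fibroblasts and their matrix. Between members the highest value was that of Ccl19 with Ccl21a, 0.50 in the HFD liver and 0.31 in the NCD liver. Ccl6 in the HFD liver went with Cd5l (0.40), a Kupffer cell gene, and Ccl5 with Tmsb4x (0.34) and Cd74 (0.31). Ccl9 went with Mmp12 (0.20) and Mt1 (0.19) in the HFD liver, but with the hepatocyte genes Alb (0.16) and Cyp2f2 (0.16) in the NCD liver. All values for Ccl27a were at or below 0.07.

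Within each section, the 5% of spots richest in a marker list were then compared with the rest, over spots with at least 1000 UMIs. In the fibroblast-rich spots of the HFD liver, 19 of 36 members were at least 2-fold higher, against 13.6% of all genes, and in those of the NCD liver 15 of 25, against 16.1%. Ccl21a stood at 196 CPM in 180 fibroblast-rich HFD spots and 4.96 CPM in the other spots, a log2 ratio of 5.31 (5.11 to 5.50). Its NCD values were 224 CPM in 143 such spots and 7.71 CPM elsewhere, a log2 ratio of 4.86 (4.58 to 5.14). Ccl19 reached log2 ratios of 3.05 and 3.92 in the HFD and NCD livers, Ccl8 3.28 and 4.17 and Ccr7 3.04 and 4.29. Cx3cl1 (2.77) and Ccl22 (2.58) also stood high in the fibroblast-rich HFD spots. The Ccr7 ligands, Ccr7 itself and Ccl8 thus stood high in the same kind of spots in both sections, but not in these spots alone. In spots rich in smooth muscle markers Ccl21a had log2 ratios of 5.19 and 4.54 in the HFD and NCD livers, in spots rich in large vessel and lymphatic endothelium markers 4.51 and 4.44 and in T cell-rich spots 3.16 and 3.90. Ccl8 (4.20) in smooth muscle-rich NCD spots and Ccr7 (4.44) in T cell-rich NCD spots had values like those in fibroblast-rich spots. The fibroblast markers summed to 38.5 CPM in the NCD liver and 184 CPM in the HFD liver.

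Spots rich in T cell markers held 14 of 36 members at least 2-fold higher in the HFD liver, against 6.77% of all genes, and 18 of 25 in the NCD liver, against 12.6%. Ccl5 stood at 169 CPM in the T cell-rich HFD spots and 45.4 CPM elsewhere (log2 1.90, 1.76 to 2.03), and at 389 CPM and 52.8 CPM in the NCD liver (log2 2.88, 2.72 to 3.04). Cxcr3 (1.82 and 3.33) and Cxcr6 (1.72 and 3.27), receptors of effector T cells, had intervals above 0 in both sections, on 9 UMIs each in the rich spots. These genes did not stand high in T cell-rich spots alone, since fibroblast-rich NCD spots had Cxcr3 at 3.64, Cxcr6 at 2.29 and Ccl5 at 2.09. Ccr7 (4.44), Ccl21a (3.90), Ccl8 (3.64) and Ccl7 (3.39) stood above Cxcr3 in the T cell-rich NCD spots.

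In spots rich in lipid-associated macrophage markers, 19 of 36 members were at least 2-fold higher in the HFD liver, against 7.88% of all genes. Ccl3 (log2 2.23, 1.44 to 2.95), Ccl22 (2.02), Ccr1 (1.74, 0.87 to 2.51), Ccl6 (1.73, 1.59 to 1.87), Cxcl14 (1.61) and Ccr2 (1.44, 0.86 to 1.97) were among them. Ccl6 stood there at 135 CPM against 40.7 CPM in the other spots. In the NCD liver the count was 10 of 25, against 11.7% of all genes, with Ccl21a (3.26), Cxcl14 (2.76) and Ccl19 (2.40) highest.

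Kupffer cell-rich spots of the HFD liver held 4 of 36 members at least 2-fold higher, against 3.22% of all genes, among them Ccl3, Ccl24 and Ccl6. Ccl24 stood at 8.39 CPM there and 3.26 CPM elsewhere (log2 1.36, 0.74 to 1.94). Ccl21a was far lower there, at 3 UMIs and 0.899 CPM against 14.4 CPM elsewhere (−4.00, −6.28 to −2.45), and it had 0 UMIs in the Kupffer cell-rich NCD spots. In the NCD liver the count was 13 of 25, against 11% of all genes, and it was 8 when the richest 10% of spots were taken. Ccl9 was nearly level in these NCD spots (0.15, −0.76 to 0.94) and in those rich in lipid-associated macrophage markers (0.04, −0.80 to 0.78). In hepatocyte-rich NCD spots it was higher (0.57, 0.18 to 0.93). The Kupffer cell-rich NCD spots had a median of 2222 UMIs against 7066 in the rest, and the part of this gap in depth was not tested.

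The neutrophil-rich HFD spots held 10 of 36 members at least 2-fold higher, against 3% of all genes. Cxcl2 stood there at 5.23 CPM against 1.04 CPM elsewhere (log2 2.33, 1.42 to 3.15), Ccl4 had a log2 ratio of 1.81 and Cxcl10 stood at 53.3 against 17.4 CPM (1.61, 1.36 to 1.86). Cxcl1, with the largest total of the neutrophil ligands, stood at 26.8 against 18.8 CPM (0.51, 0.16 to 0.84). The monocyte-rich HFD spots held 16 of 36 such members, against 4.63% of all genes, but 3 when the richest 10% of spots were taken. That list held 372 UMIs in the whole section, so its ranking of spots is coarse.

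The liver lobule runs from the portal tract, where blood enters, to the central vein, and spots were ranked by the ratio of periportal to pericentral hepatocyte markers, and the 951 spots at each end were compared in the NCD liver and the 1197 spots at each end in the HFD liver. At least 2-fold higher at the periportal end were 6 of 23 members in the NCD liver, against 2.6% of all genes, and 7 of 33 in the HFD liver, against 3.91%. The 6 NCD members were Ccl21a, Ccl19, Ccl9, Cxcl1, Ccl8 and Ccl2. In the HFD liver Cx3cl1, Ccl21a, Ccr9, Ccl22, Ccr7, Ccl19 and Cxcl5 passed, of which Ccr9 rested on 18 and 4 UMIs and Cxcl5 on 15 and 5 UMIs. The median depth at the periportal and pericentral ends was 4636 and 7928 UMIs in the NCD liver and 24625 and 16984 UMIs in the HFD liver.

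Ccl9 stood at 34.5 CPM in periportal and 12.4 CPM in pericentral NCD spots (log2 1.47, 1.17 to 1.78), with 23.4 CPM between them. In the HFD liver it was at 53.1, 43.1 and 28.0 CPM in the same order (0.93, 0.79 to 1.06). Ccl9 was thus lower at each step towards the central vein in both sections, whereas Ccl21a in the NCD liver was highest between the ends, at 25.7 CPM. Cxcl1 was also higher near the portal end, by 1.25 (0.24 to 2.31) on the log2 scale in the NCD liver and 0.77 (0.57 to 0.98) in the HFD liver. Cx3cl1 in the HFD liver stood at 2.87 CPM in periportal and 0.606 CPM in pericentral spots (2.24, 1.39 to 3.21).

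At least 2-fold higher at the pericentral end were 0 of 23 members in the NCD liver, against 3% of all genes, and 1 of 33 in the HFD liver, against 2.4%. That gene was Ccl24, at 4.75 CPM in pericentral and 2.04 CPM in periportal HFD spots (log2 −1.22, −1.70 to −0.75). Ccl25 (−0.86, −1.40 to −0.32) leaned the same way in that section, and the NCD intervals of both genes held 0. Cxcl12 was nearly level along the lobule, at −0.032 in the NCD liver and −0.087 in the HFD liver.

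**Figure D4:**
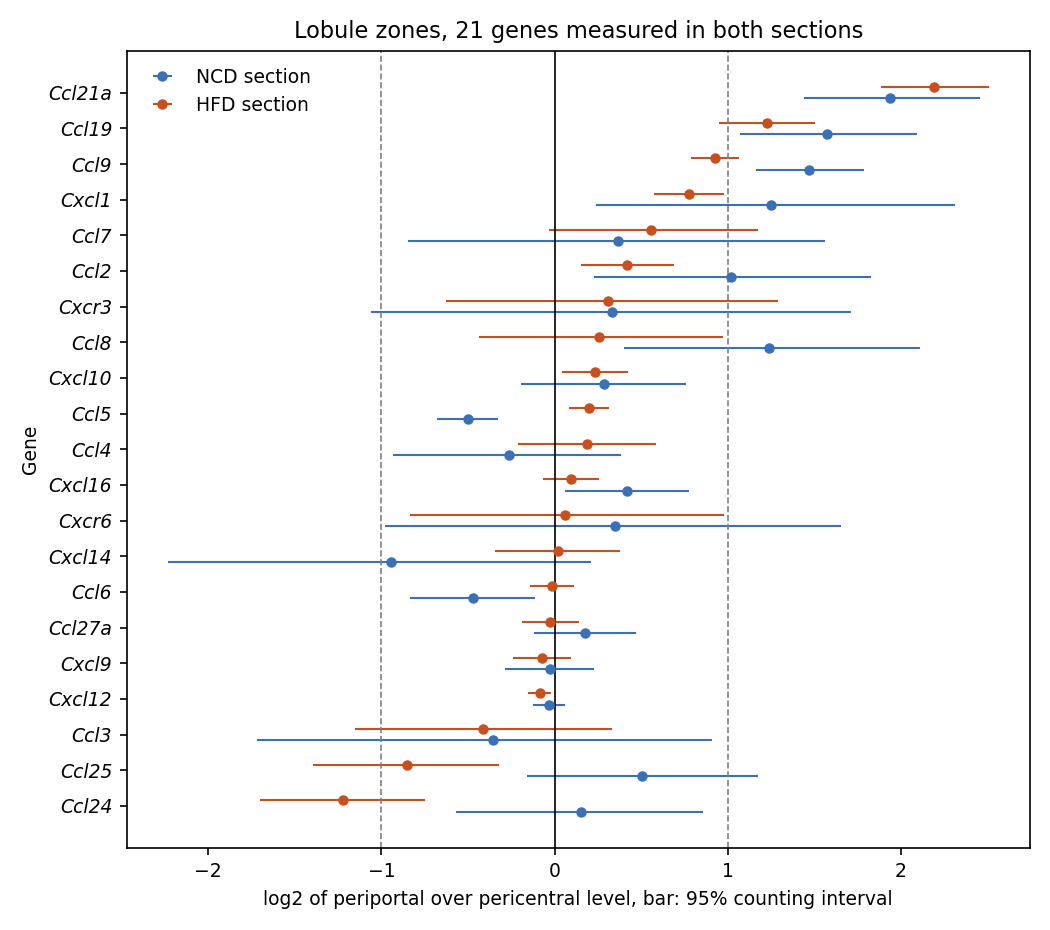
Log2 ratio of the level in the periportal end over the pericentral end of the lobule, with bars for 95% exact counting intervals, for 21 genes measured in both sections, with NCD in blue and HFD in orange. Ccl21a, Ccl19, Ccl9 and Cxcl1 lie to the right of 0 in both sections, and Ccl5 lies on opposite sides, at −0.50 in the NCD liver and 0.20 in the HFD liver.

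Ligand and receptor pairs were compared by the level of the receptor in spots with at least 1 UMI of the ligand over all other spots. Of 35 pairs, 10 in the NCD liver and 19 in the HFD liver had at least 20 UMIs of both genes. At least 2-fold higher was the receptor in 5 NCD pairs and 3 HFD pairs, and the interval lay above 0 in 4 and 7 pairs. Shares over all genes were taken only for spots with Ccl21a or Ccl19 and, in the HFD liver, Cx3cl1. The other pairs and the counts of intervals have no such reference. In the NCD liver, Ccr2 with Ccl7 rested on 2 UMIs in the ligand spots. For Ccl21a and Ccr7 both sections passed. In the HFD liver Ccr7 was at 7.97 CPM in 279 spots with Ccl21a and 1.28 CPM in the rest (log2 2.64), where 8.29% of all genes were at least 2-fold higher. In the NCD liver it was at 6.39 and 0.517 CPM (3.63) on 10 UMIs in the spots with Ccl21a, where 8.56% of all genes were. After drawing down to 3000 UMIs the HFD value was 3.40 (1.61 to 4.90), on 5 UMIs.

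Ccr7 was also higher in spots with Ccl19, with a log2 ratio of 2.03 in the HFD liver and 2.45 in the NCD liver, where 4.65% and 6.47% of all genes were at least 2-fold higher. After drawing down, the HFD value was 0.56 (−4.81 to 3.19) on 1 UMI, so it no longer passed. In the HFD liver Cx3cr1 stood at 3.41 CPM in 117 spots with Cx3cl1, on 10 UMIs, and 1.56 CPM elsewhere (1.13, 0.03 to 2.06). In those spots 7.84% of all genes were at least 2-fold higher. After drawing down, this pair had too few UMIs to be evaluated. Ccr1 in spots with Ccl9 was just under 2-fold, at 1.88 and 0.944 CPM in the HFD liver (0.37 to 1.67 on the log2 scale). Ccr2 in spots with Ccl2 had a log2 ratio of 0.16 (−0.30 to 0.59) in the HFD liver and 2.24 (0.20 to 3.87) in the NCD liver, where it rested on 4 UMIs. Cxcr4 in spots with Cxcl12 stood at 2.77 and 2.05 CPM in the HFD liver (0.43, −0.44 to 1.46). Cxcr3 was not higher in spots with Cxcl10 in the HFD liver, at 0.666 and 0.980 CPM. Spots with a ligand UMI were deeper than the rest in most pairs, for example 22631 against 14946 UMIs at the median for Ccl9 in the HFD liver, though not for Ccl21a there.

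Of 29 other genes of the system, 27 had at least 50 UMIs, and of these 6 were at least 2-fold higher in the HFD liver and 0 at least 2-fold lower, against 11.9% and 2.5% of all genes, with a median log2 ratio of 0.63 against 0.25 over all genes. Among them were the scavenging receptor Ackr2 (0.620 and 2.34 CPM, log2 1.92, 1.21 to 2.71), the platelet chemokine Pf4 (1.34, 1.03 to 1.66), the chemerin receptor Cmklr1 (1.24), the signalling kinase Pik3cg (1.24), and the adhesion molecules Vcam1 (13.5 and 35.8 CPM, 1.41, 1.26 to 1.57) and Itgal (1.00). The scavengers Ackr3 and Ackr4 had intervals that held 0. Chemerin itself, Rarres2, stood at 610 and 875 CPM (0.52), and the inhibitory G protein gene Gnai2 at 47.7 and 88.3 CPM (0.89). Sele, an endothelial adhesion gene, had 0 UMIs in both sections.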

How the data were processed

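Visium libraries of 1 NCD and 1 HFD liver section were used, 1 mouse for each diet. The authors aligned and counted reads with Space Ranger (version 1.3.1), and the deposited values are raw UMI counts for each gene and spot. The processing notes name mm10, and the annotation release and the use of strand are not given in the sources used here. The tables of tissue spots and of all capture spots differed in 0 UMIs over the shared spots.

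UMIs were summed over the tissue spots of a section and divided by all its UMIs (CPM, not divided by gene length). A CPM has an exact Poisson interval, a ratio an exact conditional binomial interval and a share a Clopper-Pearson interval, all at 95%. With 1 section for each diet a count model could not be fitted and the numbers past 2-fold are descriptions. A gene needed 50 UMIs in total to be compared: members and other genes of the system past it are named. Within a section the minimum was 20 UMIs, spots had at least 1000 UMIs, and for members with at least 200 UMIs the 5 most alike genes were named. Shares were also taken after drawing each spot down to 3000 UMIs, and 1585 spots of the NCD liver and 56 of the HFD liver were too shallow for it.

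The members, gene lists and comparisons were chosen with earlier results of these data known, and the marker lists described were chosen after their counts were seen. Python 3.11.15, numpy 2.4.6, scipy 1.17.1 and pandas 2.3.3 were used, and the procedure was tested on simulated data. Positions come from GENCODE M21 (GRCm38) and promoter sequences from RefSeq (GRCm38.p6). Values of 1 member are not reported here and it is not drawn in the figures, but it is included in sums and counts over the members.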

Additional observations from a re-analysis of the deposited data

Results flagged for a closer look

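Ccl5 lay on opposite sides of 0 along the lobule. Its log2 ratio of periportal over pericentral spots was −0.50 (−0.68 to −0.33) in the NCD section, at 51.6 and 73.1 CPM, and 0.20 (0.08 to 0.31) in the HFD section, at 54.1 and 47.2 CPM. The difference between the sections was not tested.

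Capture spots outside the tissue held Cxcl12 at 241 CPM on the NCD slide (1657 UMIs), against 205 CPM over tissue. On the HFD slide they held it at 106 CPM, against 143 CPM over tissue.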

How the results depend on the processing

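The log2 ratio of the summed ligands was −0.082 as a mean over spots and −0.036 after drawing spots down to 3000 UMIs, against 0.055 as reported, and it was 0.098 with the rate off tissue subtracted, 0.11 once the 1% of spots richest in them were dropped and 0.41 without Cxcl12. For the summed receptors it was 1.61 with the rate off tissue subtracted and 1.32 without the 1% of spots. The count of members at least 2-fold higher in the HFD section ran from 10 to 15 over the alternatives. The count at least 2-fold lower was 1 as a mean over spots, 4 with the rate off tissue subtracted and 1 with a minimum of 100 UMIs. Ccr7 turned to −0.58 with the rate off tissue subtracted. With 10% of spots as marker-rich, the count was 8 for Kupffer cells in the NCD section and 3 for monocytes in the HFD section. With fewer spots (4 equal parts in place of 3) at each end of the lobule, 1 NCD and 2 HFD members were at least 2-fold higher at the pericentral end. After drawing down, 0 of the 2 NCD pairs that could be evaluated passed 2-fold. Over the 206 alternative values of the 32 single members, 147 stayed within the counting interval of the reported value and the rest moved beyond it. In 16 of these values the sign turned, in 10 members, of which Ccr7, Cxcl12, Ccl19, Ccl25 and Cxcl9 had an interval that left out 0 as reported. The others were Xcl1, Ccl21a, Ccl24, Ccl3 and Ccl4. Some signs turned when the 1% of spots richest in a gene were dropped. For each of these genes, those spots held a larger share of its UMIs in the NCD section than in the HFD section. For Ccl3 the shares were 97.8% and 48.5%, so its value of 4.37 rests on very few NCD UMIs. Some alternatives gave no value for a member. The causes were not tested. Depth limits the ratios of receptors such as Cx3cr1 (10 UMIs) and of ligands such as Cxcl2 (4 UMIs), which rest on few UMIs in the NCD section. No paired analysis was possible because the diets share only 1 replicate number.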

Other observations

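Over the 2852 NCD spots, the genes most like Cxcl9 were the acute-phase genes Saa3 (r = 0.36), Saa2 (0.33) and Saa1 (0.31), followed by AW112010 (0.29) and Lcn2 (0.27). Over the 3590 HFD spots they were AW112010 (0.25), Gbp2 (0.23), Lcn2 (0.16), Wfdc17 (0.14) and Saa1 (0.14), so AW112010, Lcn2 and Saa1 were among the 5 nearest genes in both sections. These are correlations over spots of 1 section each, and the difference between sections was not tested.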
